A study of Mus musculus with 16 samples.

Results

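The leukocyte integrins described here are 7 genes, Itgal, Itgam, Itgax, Itgb2, Itga4, Itgb7 and Itgae, chosen by symbol from the 13733 genes of a bulk RNA-seq table of mouse knee joint cells. Rows were found for 5 of the 7, and Itgam and Itgax were not analysed here. The 16 libraries came from 4 groups of 4 mice. WT C57BL/6 and Trem2-/- mice were compared, uninjured (D0) or 7 days after rupture of the anterior cruciate ligament by one tibial compression at 10 weeks of age (D7). Trem2-/- mice, bought from Jackson Laboratory, lack a working gene for the myeloid receptor Trem2 in every cell and throughout life, so a change caused by the gene in one cell type cannot be told apart from one in another. The labels name cells from knee joints and the paper describes cells released from the joint by enzymes. A second label text describes homogenized joints of control and diabetic mice aged 16 weeks, and whether CD45+ cells were enriched for these libraries is not stated. Groups follow genotype and injury, on which both sources give the same assignment.

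Integrins are adhesion receptors of an alpha and a beta chain. On leukocytes, the beta2 chain (Itgb2, CD18) pairs with alphaL (Itgal, giving LFA-1), alphaM (Itgam, giving Mac-1), alphaX (Itgax) or alphaD (Itgad), and is needed for firm arrest on the vessel wall and for crossing it. The alpha4 chain (Itga4) pairs with beta1 (Itgb1) to bind Vcam1 or with beta7 (Itgb7) to bind Madcam1, and alphaE (Itgae, CD103) pairs with beta7 to bind E-cadherin (Cdh1). The receptors rest in a bent form until signals from inside the cell, through Rap1, talin and kindlin, open them.

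Values are normalised read counts, in CPM, reads scaled to a common library size after correction by the trimmed mean of M-values (TMM) method. Reads recovered on the listed genes numbered 11567073 to 32867818 per library, and total depth is not known from these values. In these libraries 3 reads corresponded to 0.101 to 0.250 CPM, a limit that covers counting error only. Trem2 was 10.7 to 22.5 CPM at WT D7 and 3.42 to 4.84 CPM at Trem2-/- D7. At D0 it was 2.51 to 5.61 CPM in WT and 0.948 to 2.68 CPM in Trem2-/- mice, so transcript was still counted in the mutant. Of the 5 integrin genes found, 4 passed the filter of at least 1 CPM in at least 4 libraries. Fold changes are differences on the log2(CPM + 1) scale from limma, and a gene is called where the unadjusted p is under 0.05 and the fold change is past the threshold of the study's methods. Benjamini-Hochberg adjusted p-values over the 13173 genes tested are given beside the calls. The comparisons share mice, since each group enters more than one of them. Nothing in the labels says whether the libraries of a group came from separate litters or days, so p-values measure the spread between these libraries.

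All positions are on GRCm38 (mm10), from the GENCODE M21 annotation. Itgb2 lies on chromosome 10, 77530252 to 77565708, on the plus strand. Itgal lies on chromosome 7, 127296260 to 127335138, plus strand, and Itga4 on chromosome 2, 79255426 to 79333123, plus strand. Itgb7 lies on chromosome 15, 102215995 to 102231944, minus strand, and Itgae on chromosome 11, 73090583 to 73147446, plus strand. Of the exon bases of Itga4, 8.04% are shared with Cerkl on the opposite strand. How strand was handled in counting is not given in the sources used here, so reads from that stretch cannot be assigned to one of the genes. No other listed member shared exon bases with another gene. In the annotation, 68.7% of the exon bases of Itgam are shared with the gene model Gm49368 on the same strand.

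The 250 bases before the RefSeq start (GRCm38.p6) of the chains of alpha4beta7 are shown because these genes encode partners of one receptor and fell together at D7. Both strands were searched for TGTGGT, the core bound by Runx factors, and for GAGGAA, a core bound by Ets factors such as PU.1. Sequences are written on the strand of the gene, and capitals mark a match, here read on the strand opposite the gene.
Itga4, chr2:79255176-79255425, plus strand: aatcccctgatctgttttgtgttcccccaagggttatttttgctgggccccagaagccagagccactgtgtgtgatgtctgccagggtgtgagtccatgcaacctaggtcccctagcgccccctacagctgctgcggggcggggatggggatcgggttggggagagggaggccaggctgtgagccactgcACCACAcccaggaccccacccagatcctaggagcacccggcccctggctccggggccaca
Itgb7, chr15:102231936-102232185, minus strand: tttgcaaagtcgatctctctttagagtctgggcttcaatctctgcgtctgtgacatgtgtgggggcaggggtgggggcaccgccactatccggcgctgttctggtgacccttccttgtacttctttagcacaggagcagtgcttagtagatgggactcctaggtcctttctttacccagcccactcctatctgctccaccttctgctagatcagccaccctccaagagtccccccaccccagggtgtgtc
The Itga4 window held TGTGGT once, at bases -60 to -55 from the start, and no GAGGAA. The Itgb7 window held neither. Among 32851 promoter windows of the same length, 14% held TGTGGT and 23.3% held GAGGAA. RefSeq promoter windows were found for 4 of the 7 genes, Itga4, Itgb7, Itgam and Itgax.

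Itgb2, which encodes the beta2 chain shared by LFA-1 and Mac-1, was 364, 689, 716 and 437 CPM in the 4 WT D0 mice and 234, 285, 502 and 341 CPM in the 4 WT D7 mice. In Trem2-/- mice it was 823, 602, 818 and 438 CPM at D0 and 172, 196, 212 and 195 CPM at D7. The Trem2-/- D7 mice lay below every mouse of the other groups, with an SD of 16.4 CPM (n = 4), while the WT groups at D0 and D7 overlapped. Itgal, the alphaL chain of LFA-1, was 120, 240, 236 and 134 CPM at WT D0 and 61.5, 81.4, 139 and 90.1 CPM at WT D7. In Trem2-/- mice Itgal was 235, 195, 261 and 141 CPM at D0 and 42.8, 45.6, 58.3 and 52.6 CPM at D7. All 4 Trem2-/- D7 mice were again the lowest of the 16.

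Itgb7 was 35.3, 85.8, 98.1 and 56.9 CPM at WT D0 and 31.4, 28.5, 40.1 and 23.5 CPM at WT D7. In Trem2-/- mice Itgb7 was 84.1, 59.0, 111 and 51.4 CPM at D0 and 15.3, 21.3, 18.1 and 20.2 CPM at D7. The lowest WT D0 mouse lay below the highest WT D7 mouse, and the Trem2-/- D7 mice lay below all others. Itga4 was 46.5, 168, 84.1 and 70.3 CPM at WT D0, where replicate 2 stood above the others, and 59.3, 51.3, 51.0 and 37.3 CPM at WT D7. In Trem2-/- mice Itga4 was 107, 67.3, 111 and 64.7 CPM at D0 and 27.2, 31.1, 33.5 and 33.4 CPM at D7. Itgae stayed near the limit of counting, with 2 to 20 reads and 0.120 to 0.850 CPM per library, and failed the filter. Its group means were 0.459 ± 0.3, 0.543 ± 0.141, 0.522 ± 0.153 and 0.526 ± 0.27 CPM (SD, n = 4) in WT mice at D0 and D7 and in Trem2-/- mice at D0 and D7, in that order, and all groups overlapped. Having failed the filter, Itgae was not tested for a difference, and its few reads limit what could be seen.

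**Figure D1:**
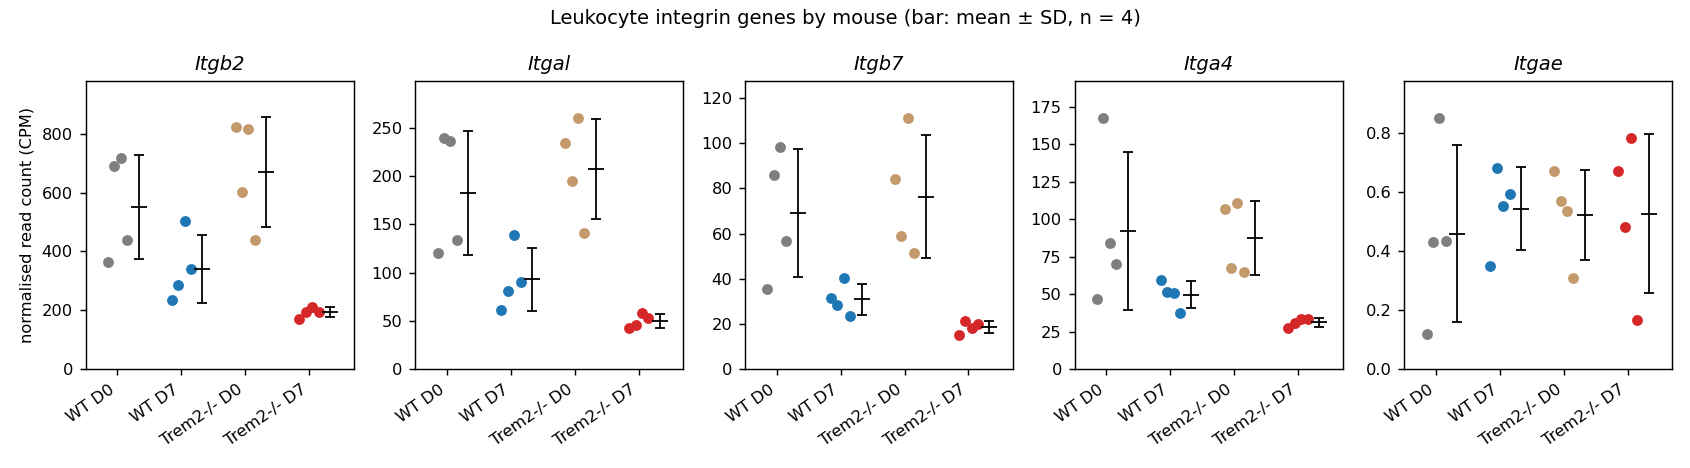
Normalised read count (CPM, linear axis from 0) of the 5 leukocyte integrin genes found, 1 point per mouse, with the mean and SD of the 4 mice in each group. For Itgb2, Itgal, Itgb7 and Itga4 the 4 Trem2-/- D7 points lie below all other points; Itgae stays under 1 CPM with no order among groups.

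At D7, 7 days after injury, all 4 tested members were called lower than at D0 in WT mice. Itgb2 fell from 552 ± 177 to 340 ± 116 CPM (SD, n = 4), or -0.70 ± 0.26 (SE) on the log2 scale (limma, adjusted p = 0.0589). Itgal fell from 182 ± 64.4 to 93 ± 32.9 CPM (SD, n = 4), or -0.96 ± 0.27 (SE) on the log2 scale (limma, adjusted p = 0.017). The log2 fold change was -1.06 for Itgb7 (adjusted p = 0.0151 from limma) and -0.74 for Itga4 (adjusted p = 0.0697). Of all genes tested, 18.2% were called lower in this comparison. With adjustment, 2 of the 4 members passed, Itgal and Itgb7, against 12.6% of all genes lower. For 0 of the 4 did the WT groups separate, against 9.34% of all genes that were lower without overlap. Single libraries moved these counts. The number called became 2 without WT D0 replicate 2, where Itgb2 and Itga4 were lost. The number passing adjustment was 1 with WT D7 replicate 1 or WT D0 replicate 2 left out, 0 with the third WT D0 library (replicate 3) left out and 4 with the first (replicate 1) left out.

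In Trem2-/- mice the same 4 genes were lower at D7, with log2 fold changes of -1.41 to -2.01. Itgb2 fell from 670 ± 186 to 194 ± 16.4 CPM (SD, n = 4), or -1.74 ± 0.26 (SE) on the log2 scale (limma, adjusted p = 9.51e-05). Itgal fell from 208 ± 51.9 to 49.9 ± 7 CPM (SD, n = 4), or -2.01 ± 0.27 (SE) on the log2 scale (limma, adjusted p = 4.11e-05). The log2 fold change was -1.92 for Itgb7 (adjusted p = 9.05e-05 from limma) and -1.41 for Itga4 (adjusted p = 0.00101 from limma). All 4 were called lower, against 27.9% of all genes, and all 4 passed adjustment, against 27.2%. The D0 and D7 values did not overlap for any of the 4, against 26.3% of all genes lower without overlap. The lowest library of all 16 was Trem2-/- D7 replicate 1 for each of the 4. From the highest to the lowest library the range was 4.79-fold for Itgb2, 6.09-fold for Itgal, 6.17-fold for Itga4 and 7.29-fold for Itgb7.

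At D7 the 4 genes were lower in Trem2-/- than in WT mice before adjustment. The log2 fold changes were -0.83 for Itgal (95% interval -1.40 to -0.27), -0.76 for Itgb2 (-1.32 to -0.20), -0.68 for Itgb7 (-1.29 to -0.07) and -0.64 for Itga4 (-1.26 to -0.01). Adjusted p-values from limma were 0.514, 0.558, 0.627 and 0.674. That 0 of the 4 passed adjustment held with limma, with voom and with edgeR, while 4 had an unadjusted p under 0.05 with each. With limma 0 of all 13173 genes passed adjustment here, so this is not particular to the members. All 4 members were called lower, against 4.53% of all genes, and all 4 were lower without overlap of the groups, against 4.78%. The calls of Itga4 and Itgb7 were the less stable ones. Itga4 was no longer called when any 1 of 7 of the 8 D7 libraries was left out, and Itgb7 when any 1 of 4 was. Itga4 was also lost with a pseudocount of 5, quantile normalization, median-of-ratios rescaling or the replicate block, each of which left 3 members called. The count fell to 2, Itgal and Itgb2, without WT D7 replicate 1 or 3 or Trem2-/- D7 replicate 1 or 3.

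The D7 minus D0 change was tested against genotype as an interaction. It was more negative in Trem2-/- mice for Itgal, with a difference of -1.05 on the log2 scale (95% interval -1.86 to -0.25, adjusted p = 0.579 from limma). For Itgb2 the difference was -1.05 (95% interval -1.84 to -0.26, adjusted p = 0.579 from limma). Itgb7 gave -0.86 (adjusted p = 0.612 from limma) and Itga4 gave -0.68 (adjusted p = 0.68 from limma), and neither was called. Calls therefore numbered 2 of 4, against 5.02% of all genes called lower, and 0 of 4 passed adjustment with limma, voom or edgeR. With limma 0 of all 13173 genes passed adjustment in the interaction. With voom and with edgeR 3 of the 4 had an unadjusted p under 0.05, Itgb7 included. Without WT D0 replicate 2 all 4 were called, with Itga4 at -1.01.

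Before injury no difference between genotypes was called, and the intervals were wide. The Trem2-/- minus WT difference at D0 on the log2 scale was 0.29 for Itgb2 (95% interval -0.27 to 0.85), 0.22 for Itgal (-0.35 to 0.79), 0.18 for Itgb7 (-0.43 to 0.79) and 0.04 for Itga4 (-0.59 to 0.66). That 0 of the 4 were called compares with 2.15% of all genes called in either direction at D0, with 0 also from voom and edgeR, and the members' groups overlapped. For Itga4 and Itgb7 the sign turned when single libraries were left out.

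**Figure D2:**
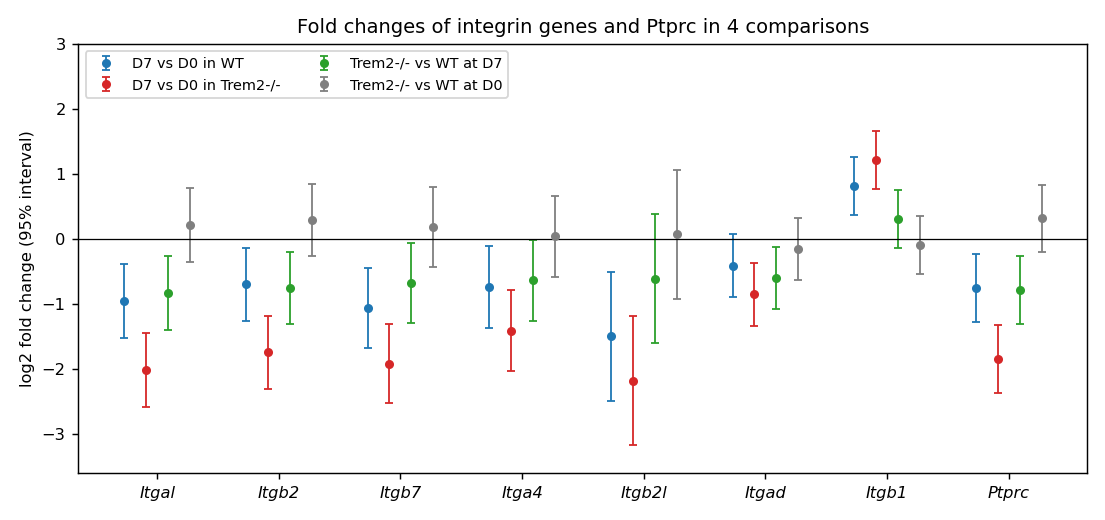
Log2 fold change with its 95% interval from limma for the 4 tested members, the relatives Itgb2l and Itgad, the partner Itgb1 and the leukocyte gene Ptprc, in 4 comparisons marked by colour. The members and Ptprc lie below 0 at D7 in both genotypes and in Trem2-/- against WT at D7, while Itgb1 lies above 0 after injury.

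The members differed in how alike their profiles were. Across the 16 libraries, the root mean square difference between the centred log2 values of Itgal and Itgb2 was 0.156, which placed Itgb2 at rank 24 among all genes compared by closeness to Itgal. The other pairs lay at 0.255 (Itgal and Itgb7), 0.273 (Itgb2 and Itgb7), 0.33 (Itga4 and Itgb7), 0.364 (Itgb2 and Itga4) and 0.41 (Itgal and Itga4), at ranks of 139, 211, 272, 485 and 466 by closeness to the gene named first. Median differences over the 10548 genes compared were 0.733 to 0.893. Among the genes most like Itgal was Fam65b, at 0.125. Itgb2 was most like Spi1, which encodes PU.1, at 0.105, the Fc receptor chain Fcer1g at 0.106 and the actin bundling protein gene Lcp1 at 0.111. Itgb7 was most like Fermt3, the kindlin of blood cells, at 0.148, Stxbp2 at 0.155 and Limd2 at 0.157. Itga4 stood apart in this list, since its nearest genes were Mcm10 at 0.146, Wdhd1 at 0.157 and Neil3 at 0.168, of which Mcm10 and Wdhd1 act in DNA replication. All these values come from the same 16 libraries and share their group differences.

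Scaled to Itgb2, 0 of the other 3 members were called by limma in any comparison. Shares of all genes called relative to Itgb2 in either direction were 46.2% for D7 against D0 in WT, 91.8% for D7 against D0 in Trem2-/-, 58.2% for genotype at D7, 1.41% for genotype at D0 and 56.3% for the interaction. Scaled to Ptprc, which encodes the leukocyte marker CD45, 0 of the 4 members were called, against 55.3%, 93.1%, 68.1%, 2.03% and 67.9% of all genes in the same order. The ratio of Itgb2 to Ptprc lay between 0.888 and 1.23 in all 16 libraries, although Itgb2 itself spanned 4.79-fold. Fewer leukocytes, less transcript per leukocyte and a larger share of reads from other cells cannot be told apart in bulk libraries, and none was tested.

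Within each mouse, small shifts between chains could still be measured. The ratio of Itgal to Itgb2 was 0.306 to 0.348 at WT D0 and 0.263 to 0.286 at WT D7, and 0.285 to 0.324 at Trem2-/- D0 and 0.233 to 0.276 at Trem2-/- D7. D7 mice lay below D0 mice without overlap in both genotypes. The mean log2 difference was -0.27 in WT and -0.29 in Trem2-/- mice (exact two-sided permutation p = 0.0286 in each, the smallest that 4 against 4 mice can give). Of all genes, 0.82% in WT and 0.554% in Trem2-/- mice had a ratio to Itgb2 that was lower at D7 without overlap. Itgb2 itself fell, so low shares follow from the choice of reference, and 84.2% of genes were higher without overlap in Trem2-/- mice. Neutrophil markers had median log2 fold changes of -1.36 in WT and -2.13 in Trem2-/- mice, against -0.70 and -1.74 for Itgb2. Leukocyte markers had medians of -0.75 and -1.585, the latter a smaller fall than that of Itgb2. By the medians of the neutrophil markers, a fall past that of Itgb2 was not particular to Itgal. The limma fit of the ratio of Itgal to Itgb2 gave differences of -0.26 (adjusted p = 0.29) and -0.27 (adjusted p = 0.216), with a spread shared with all other genes. Genotypes did not separate in this ratio at D7 (exact permutation p = 0.229) or at D0 (exact permutation p = 0.314).

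The ratio of Itga4 to Itgb7 went the other way. It was 0.999 to 1.27 at Trem2-/- D0 and 1.46 to 1.85 at Trem2-/- D7 without overlap, a log2 difference of 0.53 (exact permutation p = 0.0286), but 87.4% of all genes had a ratio to Itgb7 that was higher without overlap, so this is not particular to Itga4. In WT mice it was 0.858 to 1.95 at D0 and 1.27 to 1.89 at D7 (exact permutation p = 0.343). Itga4 over Itgb2 was also higher at D7 in Trem2-/- mice, by 0.30 on the log2 scale (exact permutation p = 0.0286, with 84.2% of all genes likewise higher without overlap). In WT it differed by -0.05 (exact permutation p = 0.886). Itgb7 over Itgb2 overlapped between D0 and D7 in both genotypes, with exact permutation p = 0.229 in WT and p = 0.171 in Trem2-/- mice. In all, 4 ratios were tested in 4 comparisons each, or 16 tests, the tests were chosen after the ratios had been seen, and 4 gave the smallest possible p.

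**Figure D3:**
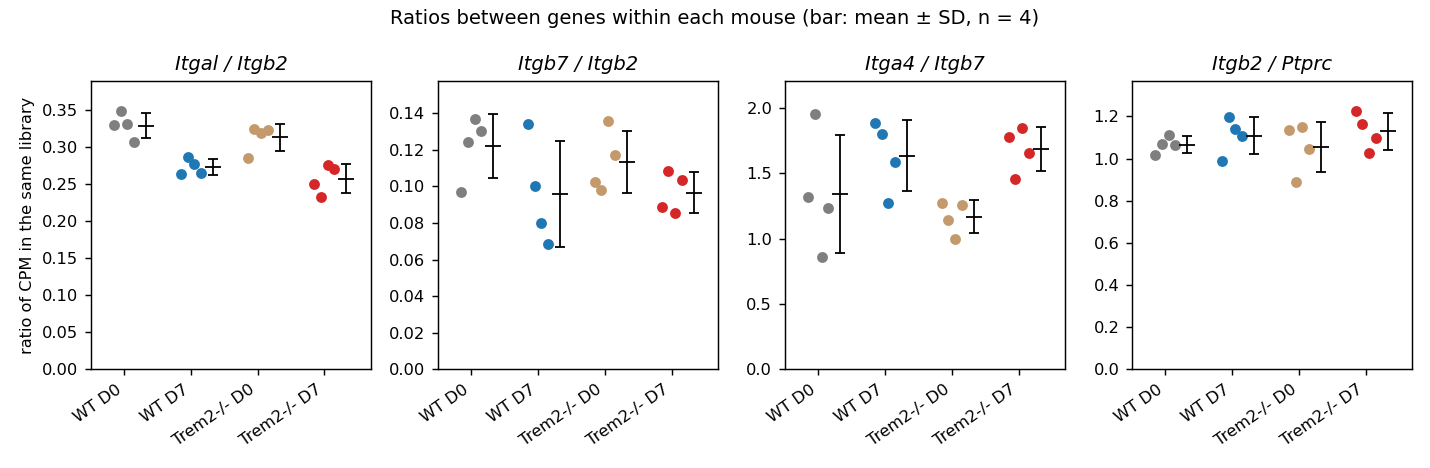
Ratio of the CPM of 2 genes in the same library (linear axis from 0), 1 point per mouse, with the mean and SD of the 4 mice in each group. Itgal over Itgb2 is lower at D7 than at D0 in both genotypes, Itga4 over Itgb7 is higher at D7 in Trem2-/- mice, and Itgb2 over Ptprc stays between 0.888 and 1.23.

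Levels of different genes were compared only per kilobase of merged exons. At WT D0, Itgb2 had the highest level of the members, 181 ± 58 CPM per kb (SD, n = 4). Itgal followed at 27.8 ± 9.81 and Itgb7 at 24.9 ± 10.2 CPM per kb, whose values overlapped. Itga4 had 6.59 ± 3.77 CPM per kb and Itgae 0.1 ± 0.0655 CPM per kb, and each lay apart from the gene above it. At WT D7 the levels were 112 ± 38.2 CPM per kb for Itgb2, 14.2 ± 5.01 for Itgal, 11.1 ± 2.52 for Itgb7 and 3.56 ± 0.652 for Itga4 (SD, n = 4), and at Trem2-/- D0 they were 220 ± 60.9, 31.6 ± 7.91, 27.6 ± 9.76 and 6.26 ± 1.78 CPM per kb. The order of the means was the same in all groups, and at Trem2-/- D7 it ran from 63.5 ± 5.38 CPM per kb for Itgb2 through 7.59 ± 1.07 for Itgal, 6.76 ± 0.958 for Itgb7 and 2.24 ± 0.212 for Itga4 to 0.115 ± 0.0589 for Itgae (SD, n = 4). Itgal and Itgb7 overlapped in every group. The level of Itga4 depends on its merged exon length of 13978 bases, the longest of the members.

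The other chain that pairs with Itga4 rose after injury. Itgb1, a beta chain used by most adherent cells, rose from 696 ± 218 to 1173 ± 79.6 CPM in WT (SD, n = 4), a log2 fold change of 0.81 (adjusted p = 0.0121 from limma). In Trem2-/- mice it rose from 642 ± 147 to 1457 ± 51 CPM (SD, n = 4), by 1.21 on the log2 scale (adjusted p = 0.000265 from limma). The ratio of Itga4 to Itgb1 was 0.0513 to 0.374 at WT D0 and 0.03345 to 0.0516 at WT D7, which overlapped. The 0.374 came from WT D0 replicate 2. In Trem2-/- mice the ratio was 0.0823 to 0.226 at D0 and 0.0185 to 0.0241 at D7. Itgad, a low-expressed beta2 partner, fell in Trem2-/- mice from 3.38 ± 1.01 to 1.38 ± 0.195 CPM (SD, n = 4), by 0.85 on the log2 scale (adjusted p = 0.00527 from limma). In WT mice its log2 fold change was -0.41 (adjusted p = 0.176 from limma), and at D7 the Trem2-/- minus WT difference was -0.60 (called, adjusted p = 0.605 from limma). Exons of Itgad are shared with 4 other gene models, so its counts are uncertain. Itgb2l, a relative of Itgb2 that was named after its values were seen, varied most. It was 63.9 to 214 CPM at WT D0, 32.5 to 57.7 at WT D7, 59.9 to 287 at Trem2-/- D0 and 16.7 to 44 CPM at Trem2-/- D7, with log2 fold changes of -1.495 in WT (adjusted p = 0.0278 from limma) and -2.18 in Trem2-/- mice (adjusted p = 0.00128).

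Ligand genes were called in both directions, as were genes at large. Of the 16 ligand genes listed, 13 were tested, and in each genotype 3 were called higher and 5 lower at D7. Of all genes, 19.3% were called higher and 18.2% lower in WT, and 26.5% higher and 27.9% lower in Trem2-/- mice, so these counts are not particular to the ligands. The ligands had median log2 fold changes of -0.10 in WT and 0.08 in Trem2-/- mice against -0.05 and -0.04 over all genes. The LFA-1 ligands Icam1 and Icam2 were called lower in both genotypes, Icam1 from 454 to 292 CPM in WT (log2 fold change -0.58, adjusted p = 0.0815 from limma) and from 526 to 358 CPM in Trem2-/- mice (-0.54, adjusted p = 0.0693). Icam2 changed by -0.57 (adjusted p = 0.0795 from limma) and -0.52 (adjusted p = 0.0756). Vcam1, the ligand of alpha4beta1, was 160 and 130 CPM at WT D0 and D7 and 154 and 193 CPM in Trem2-/- mice. It was higher in Trem2-/- than WT mice at D7 by 0.55 (adjusted p = 0.629 from limma), the 1 ligand of 13 called there. Among all 13173 genes, 753 were called between genotypes at D7 in either direction. Cdh1, the ligand of alphaEbeta7, had log2 fold changes of -0.71 in WT (adjusted p = 0.0109 from limma) and -0.91 in Trem2-/- mice (adjusted p = 0.000678). Fibronectin, Fn1, which binds alpha4beta1, rose by 2.36 in WT (adjusted p = 0.00221 from limma) and 2.62 in Trem2-/- mice (adjusted p = 0.000199). C3, whose fragment binds Mac-1, had log2 fold changes of -1.06 in WT (adjusted p = 0.00872 from limma) and -1.97 in Trem2-/- mice (adjusted p = 3.77e-05). It was the 1 ligand of 13 called in the interaction (-0.91, adjusted p = 0.579 from limma), where 5.02% of all genes were called lower. Madcam1 was not analysed here.

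Most genes listed as regulators of integrin activation from inside the cell were called lower at D7. The list holds activators and also Sharpin, an inhibitor of integrin activation, and Cytip, which restrains cytohesin. Of 12 tested, 9 were called lower in WT and 11 in Trem2-/- mice, 5 at D7 between genotypes and 6 in the interaction. Shares of all genes called lower were 18.2%, 27.9%, 4.53% and 5.02% in the same order. With adjustment 5 passed in WT and 11 in Trem2-/- mice, against 12.6% and 27.2% of all genes lower. Between genotypes at D7 and in the interaction 0 passed, as was so for all 13173 genes. Between genotypes at D0, 1 was called higher in Trem2-/- mice, Rasgrp2, at 117 against 81.5 CPM (0.51 on the log2 scale, adjusted p = 1 from limma). Its D0 groups overlapped, and 2.15% of all genes were called in either direction at D0. The median log2 fold change was -0.53 in WT, -1.08 in Trem2-/- mice and -0.40 between genotypes at D7, against -0.05, -0.04 and 0.01 over all genes. Rasgrp2, an activator of Rap1, had the largest fall of the list in both genotypes, at -1.16 in WT (adjusted p = 0.00175 from limma) and -2.31 in Trem2-/- mice (adjusted p = 7.52e-06). Fyb, an adaptor of the activation complex, was lower in Trem2-/- than WT mice at D7, with a difference of -0.91 (adjusted p = 0.441 from limma). Cytip had log2 fold changes of -1.07 in WT (adjusted p = 0.00407 from limma) and -1.97 in Trem2-/- mice (adjusted p = 1.85e-05). Fermt3, which binds the beta tail, had log2 fold changes of -0.94 in WT (adjusted p = 0.0243 from limma) and -1.81 in Trem2-/- mice (adjusted p = 0.000133). Tln1 and Rap1a, made by most cell types, had log2 fold changes of -0.07 and -0.13 in WT, and of -0.54 (called) and 0.00 in Trem2-/- mice.

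Genes that relay the signal of bound integrins were called lower at D7. All 11 tested were called in both genotypes, 10 between genotypes at D7 and 10 in the interaction. Of all genes, 18.2% were called lower in WT, 27.9% in Trem2-/- mice, 4.53% between genotypes at D7 and 5.02% in the interaction. With adjustment 9 passed in WT and 11 in Trem2-/- mice, against 12.6% and 27.2% of all genes lower. Between genotypes at D7 and in the interaction 0 of the list and 0 of all 13173 genes passed. The median log2 fold change was -0.70 in WT, -1.70 in Trem2-/- mice and -0.74 between genotypes at D7, against -0.05, -0.04 and 0.01 over all genes. Fgr, a Src family kinase downstream of beta2, had log2 fold changes of -0.83 in WT (adjusted p = 0.0265 from limma) and -2.09 in Trem2-/- mice (adjusted p = 2.68e-05), with an interaction of -1.26 (adjusted p = 0.579). Tyrobp, the DAP12 adaptor that also carries the Trem2 signal, had log2 fold changes of -0.99 in WT (adjusted p = 0.0155 from limma) and -1.84 in Trem2-/- mice (adjusted p = 8.16e-05). Among the genes of selectins and their ligand, which act before integrins in capture and rolling, the leukocyte selectin ligand gene Selplg was called lower in both genotypes. The endothelial selectins Sele and Selp were called in no comparison of D7 with D0.

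**Figure D4:**
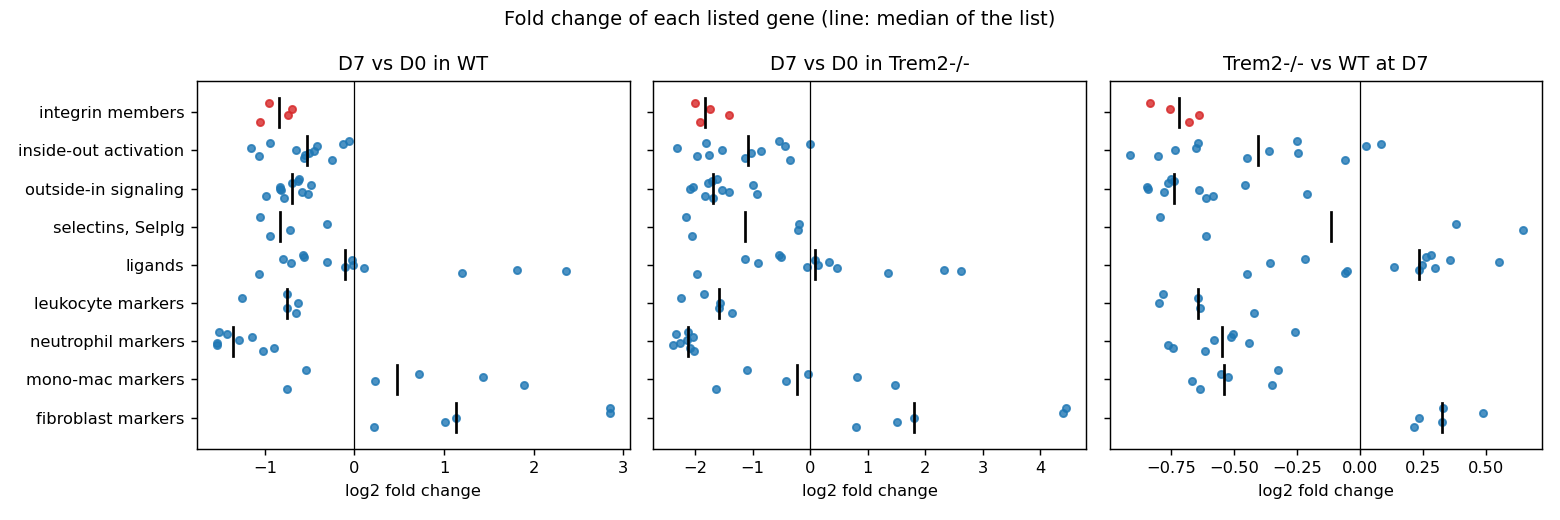
Log2 fold change of each tested gene (1 point per gene) in the members and 8 other lists, for D7 against D0 in each genotype and Trem2-/- against WT at D7; black lines mark list medians and the horizontal scales differ between panels. Members, signaling genes and leukocyte markers lie left of 0 in all 3 panels, and fibroblast markers lie right of 0.

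Leukocyte, neutrophil and B cell markers had lower medians at D7 than at D0, as the members had. Those of fibroblasts and cartilage rose, and the part of any in the results was not tested. Of all genes, 18.2% were called lower and 19.3% higher in WT, and 27.9% lower and 26.5% higher in Trem2-/- mice. Between genotypes at D7, 4.53% of all genes were called lower and 0 of 13173 passed adjustment. The 5 leukocyte markers summed to 1673 to 3454 CPM at WT D0, 1060 to 2132 at WT D7, 2171 to 3673 at Trem2-/- D0 and 780 to 938 CPM at Trem2-/- D7, and 4, 5 and 4 of 5 were called lower in WT, in Trem2-/- mice and between genotypes at D7. Ptprc had log2 fold changes of -0.75 in WT (adjusted p = 0.034 from limma) and -1.84 in Trem2-/- mice (adjusted p = 4.13e-05), and its interaction was -1.10 (adjusted p = 0.579). All 8 neutrophil markers were called lower at D7 in both genotypes, and 1 of 8 between genotypes at D7, with sums of 13320 to 29400 CPM at WT D0, 4188 to 13390 at WT D7, 13810 to 37820 at Trem2-/- D0 and 4095 to 6608 CPM at Trem2-/- D7. All 5 B cell markers were called lower in both genotypes and between genotypes at D7. At D0 the Trem2-/- minus WT median was -0.18 for B cell markers and 0.20 for the members, all uncalled. In the interaction 4 of 5 leukocyte, 1 of 8 neutrophil and 0 of 5 B cell markers were called lower, against 5.02% of all genes. Of the 6 monocyte and macrophage markers tested, 3 were called higher and 0 lower in WT, 2 higher and 3 lower in Trem2-/- mice, and 3 lower between genotypes at D7. Adgre1, which encodes F4/80, rose by 1.43 in WT (adjusted p = 0.000473 from limma) and 0.82 in Trem2-/- mice (adjusted p = 0.00176), against the direction of the beta2 chains. Csf1r rose by 0.72 in WT (adjusted p = 0.0153 from limma) and its log2 fold change was -0.04 in Trem2-/- mice (adjusted p = 0.866).

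Markers of T and NK cells gave low sums. Counts of markers here stand beside 18.2% (WT) and 27.9% (Trem2-/-) of all genes called lower, and 19.3% and 26.5% called higher. Those of T cells summed to 5.50 to 14.1 CPM at WT D0 and 2.86 to 3.56 CPM at Trem2-/- D7, with 4 of 5 called lower in each genotype, and NK cell markers to 14.0 to 44.8 and 5.50 to 7.33 CPM, with 3 of 3 tested called lower in each. Called lower in WT and in Trem2-/- mice were 2 and 3 of 6 dendritic cell markers, 2 and 2 of 4 mast cell markers, and 4 and 4 of 4 eosinophil markers, whose sums were 63.3 to 507 CPM at WT D0 and 28.6 to 69.2 CPM at Trem2-/- D7. Fibroblast markers were called higher for 3 of 5 in WT and 4 of 5 in Trem2-/- mice, with sums of 9066 to 41500 CPM at WT D0, 63930 to 88750 at WT D7, 7252 to 15940 at Trem2-/- D0 and 80930 to 114300 CPM at Trem2-/- D7. All 3 cartilage markers were called higher at D7 in both genotypes, 0 of 3 endothelial markers in either. Muscle markers were called lower for 1 of 3 in WT and 3 of 3 in Trem2-/- mice, and erythroid markers for 3 of 3 tested in both. Prg4, the lubricin gene of the joint lining, was counted in every group of these joint cells, with means of 4357 to 10250 CPM.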

How the data were processed

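Bulk RNA-seq libraries from 16 mice were analysed. The authors used STAR with the mm10 genome for alignment and featureCounts for gene counts, and deposited signal values, CPM normalized with the TMM method of edgeR. Tool versions, the annotation and the strand setting are not given in the sources used here. The paper names a stranded Illumina mRNA kit, and the labels name another one. All values (100%) were whole multiples of 1 read within 0.01 reads, so reads were recovered. The study tested counts with voom and limma. Here limma 3.58.1 (eBayes with trend, R 4.3.3) was fitted to log2(CPM + 1) of 13173 genes, with the 4 groups as one factor, which understates changes of low genes. Calls follow the rule of the study's methods (p under 0.05, fold over 1.25). Scaling to Itgb2 or Ptprc subtracted that gene's log2 value in each library. The test was checked on simulated counts. Replicates differed by more than sampling noise (a chi-square of at least 10.4 per degree of freedom).

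The members and gene lists were chosen with earlier results of these data known. Named genes were all members, Trem2, Itgad, Itgb1, Ptprc, 5 ligands, up to 3 genes per direction and contrast with the largest change among those called in each list, and the 3 genes most like each member. Some genes that this rule names are not reported here. Genes given beyond this rule (Itgb2l, Fermt3, Tln1, Rap1a, Tyrobp, Prg4 and the endothelial selectins) were chosen after their values were seen. Alternatives were pseudocounts of 0.1 and 5, other filters (none, mean of 5 CPM), quantile and median-of-ratios normalization, only the groups compared, eBayes without trend, a fold of 1.5, the replicate block, each library left out, and voom or edgeR 4.0.16 quasi-likelihood tests on recovered reads. Exact permutation tests of ratios were added after seeing the data. Positions are from GENCODE M21 and sequences from RefSeq.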

Additional observations from a re-analysis of the deposited data

Results flagged for a closer look

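The response to injury differed between genotypes for 2 members by the interaction test in limma, before adjustment. The difference, Trem2-/- minus WT, was -1.054 on the log2 scale for Itgal (adjusted p = 0.579 from limma) and -1.048 for Itgb2 (adjusted p = 0.579 from limma). Both genes fell at D7 in both genotypes. Ptprc had an interaction of -1.10 in the same fit. Among 32 sets of values, each of 1 gene in 1 of the 4 groups of 4 mice, no library stood far from the others by Dixon's criterion, which chance meets in about 1 of 20 sets.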

How the results depend on the processing

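Members called at D7 against D0 in Trem2-/- mice numbered 4 under every alternative run, and 0 were called between genotypes at D0. In WT the number passing adjustment at D7 was 2, against 1 when only the WT groups were fitted, 3 with quantile normalization, the replicate block, voom or edgeR, and 0 to 4 when libraries were left out. Leaving out single libraries gave 2 to 4 members called at D7 against D0 in WT, 2 to 4 between genotypes at D7, 2 to 4 in the interaction and 0 to 1 relative to Itgb2 in WT. The exact permutation test of ratios to Itgb2, added after seeing the data, gave 1 member in WT and 2 in Trem2-/- mice at D7. Between genotypes at D0 the sign turned for uncalled values. Itga4 was -0.075 with edgeR, ranged from -0.232 to 0.377 with single libraries left out, being below 0 at -0.232 and -0.037 without WT D0 replicate 1 or 4, and -0.071 and -0.089 without Trem2-/- D0 replicate 1 or 3. Itgb7 ranged from -0.1 to 0.383, being -0.1 without WT D0 replicate 1 and -0.018 without Trem2-/- D0 replicate 3. The cause was not tested. Replicate numbers were not taken to pair the mice, since in no 2 groups did all 4 same-number pairs have a correlation of deviations over 0.1. Such correlations were found in 11 of 24 same-number pairs and 21 of 72 other pairs. Between WT D0 and WT D7 the 4 same-number correlations ranged from 0.046 to 0.406. With the replicate block, 4 members were called at D7 against D0 in each genotype, 3 between genotypes at D7 and 3 in the interaction. With 2 to 20 reads per library, depth limits Itgae alone among the members found.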
